A study of Mus musculus with 6 samples.

Results

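The clustered protocadherins are cell-adhesion genes of the cadherin superfamily that lie side by side in an alpha, a beta and a gamma cluster on mouse chromosome 18. They were taken as every gene whose symbol in the platform annotation begins with Pcdha, Pcdhb, Pcdhga, Pcdhgb or Pcdhgc, at the brightest probe set per symbol. This gave 20 genes of the 19505 measured, and all 20 belong to the beta cluster (Pcdhb1 to Pcdhb20). The annotation used here gave 0 alpha and 0 gamma symbols, so the alpha, gamma and C-type genes, and Pcdhb21 and Pcdhb22, were not analysed here. RefSeq (GRCm38.p6) lists 14 alpha, 22 beta and 22 gamma genes in the clusters. The genes were chosen by symbol, but the family was selected with its knockdown difference already known. The differences below, and the calls made on them, are therefore a description of these arrays and not independent evidence.

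Each group had 3 arrays, of C57BL/6 mouse cells from a fibrosarcoma, a malignant tumor of fibroblast-like cells, in which Rras2, a GTPase related to RAS, bears the Q72L mutation. The controls, replicates 1 to 3, received empty pLKO, a lentiviral vector, and the knockdown cells, replicates 4 to 6, an shRNA directed at Rras2 (sh#89). Both groups therefore carry mutant Rras2 and a vector, and a single shRNA stands for the knockdown. The labels name neither separate cultures nor any batch, so p-values cover only array-to-array spread, which may be technical, and a batch that ran with the numbering and the group cannot be told apart. Rras2 itself had log2 signals of 10.67, 10.75 and 10.82 in the controls and 9.09, 9.69 and 9.21 in the knockdown, so 37.6% of the control signal remained. Its exact two-sided permutation test gave p = 0.1, the smallest that 3 arrays against 3 can give.

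Protocadherins sit in the plasma membrane and bind the same isoform on a facing cell through extracellular cadherin repeats. They are best known from neurons, where each cell switches on a few members of the clusters from separate promoters, and the resulting combination lets a neuron tell its own branches from those of others. Promoter choice is known to involve DNA methylation, the insulator protein CTCF and the ring-shaped cohesin complex. Beta genes are each made of a single coding exon and, unlike alpha and gamma genes, share no common cytoplasmic exons. Beta genes are closely alike in sequence, and how far each probe set also reads RNA of a related gene was not tested.

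The array gave weak signals for the whole beta cluster. Against the 5222 negative-control probe sets, whose log2 signals had 5.02 as their median and 7.92 as their 95th percentile, 14 of the 20 genes had a mean above that median and 0 had a mean above that percentile. Among all genes, 8131 of 19505 had a mean above it. Pcdhb17 was the single member to cross the percentile, on all 3 knockdown arrays and on none of the controls. RMA signals are compressed in this range, so the log2 differences of these genes can understate a change. In these bulk RNA samples, more RNA per cell and more cells that use a gene cannot be told apart.

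**Figure D1:**
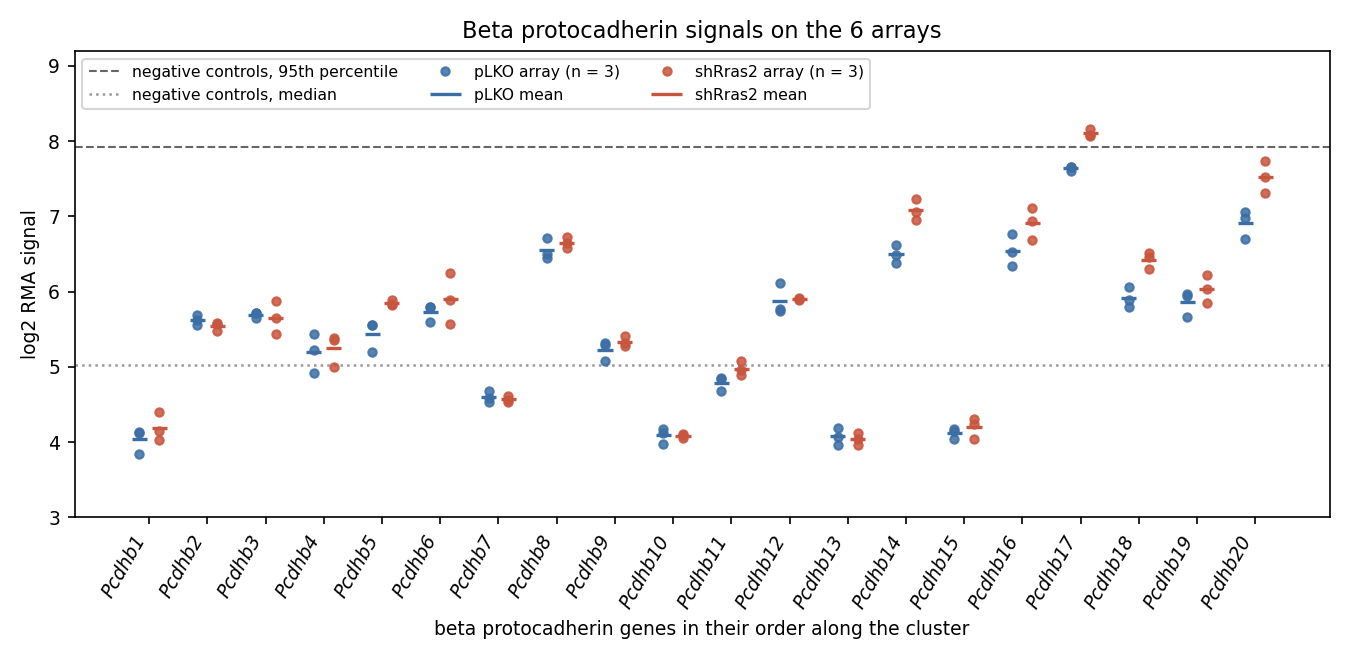
Log2 RMA signal of each beta protocadherin gene on the 3 pLKO arrays (blue) and the 3 shRras2 arrays (red), with bars for the group means, the genes in their order along the cluster and lines for the negative controls (median 5.02, 95th percentile 7.92). The 3 shRras2 points of Pcdhb14, Pcdhb17, Pcdhb18 and Pcdhb20 lie above all 3 pLKO points, and only Pcdhb17 passes the upper line.

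In the knockdown, 4 of the 20 beta genes rose (Pcdhb14, Pcdhb17, Pcdhb18 and Pcdhb20), 0 fell and 16 did not pass the threshold, an adjusted p of 0.05 in limma's fit over all genes. The measured rises were 1.38-fold to 1.53-fold, from control signals under the negative-control 95th percentile, so these folds are imprecise. Over all genes the same threshold called 5.21% in either direction, 2.99% higher and 2.22% lower, and among the 11374 genes whose mean did not exceed the 95th percentile of the negative controls it called 1.96% higher. Without regard to the threshold, 15 of the 20 differences were above 0 and 5 below, with a median of 0.13 on the log2 scale against -0.01 over all genes. Of all 19505 genes, 9127 had a difference above 0 and 10378 below. The groups did not overlap for 6 beta genes, all 6 higher in the knockdown, where 11.6% of all genes lay fully higher and 13.9% fully lower. Because the family was selected with this contrast known, these shares are set side by side and nothing is read from them.

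Pcdhb20 had the largest difference of the cluster. Its log2 signals were 6.98, 7.05 and 6.70 on control replicates 1 to 3 and 7.31, 7.53 and 7.73 on knockdown replicates 4 to 6. All 3 knockdown arrays lay above the controls, replicate 6 the farthest, and the spread within each group was wide (means 6.91 ± 0.18 and 7.52 ± 0.21, SD, n = 3 each). The log2 difference was 0.61 ± 0.13 (SE; limma adjusted p = 0.0303), a 1.53-fold rise.

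Pcdhb14 read 6.62, 6.38 and 6.48 in the controls and 6.95, 7.05 and 7.24 in the knockdown, again with no overlap. It rose 1.50-fold, by 0.59 ± 0.10 on the log2 scale (SE; limma adjusted p = 0.0131). Pcdhb18 read 5.80, 6.07 and 5.89 in the controls and 6.30, 6.46 and 6.51 in the knockdown, and rose 1.42-fold (0.51 ± 0.10, limma adjusted p = 0.0226). In both genes every knockdown array stood above every control.

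Pcdhb17 was the most even of the 4. Its control arrays read 7.65, 7.60 and 7.66 and its knockdown arrays 8.16, 8.08 and 8.07, so the groups were tight (SD 0.03 and 0.05, n = 3 each) and far apart. The rise was 1.38-fold, 0.47 ± 0.07 on the log2 scale (SE; limma adjusted p = 0.0102), the smallest of the 4 in size and the one with the lowest adjusted p.

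How many of the 4 passed depended on which arrays were in the fit. Pcdhb17 stayed past the threshold in all 6 fits that left out 1 array, Pcdhb14 in 4, Pcdhb18 in 3 and Pcdhb20 in 2. Without control replicate 3, or without knockdown replicate 6, Pcdhb17 alone passed. Without control replicate 1 the members called were Pcdhb14 and Pcdhb17. The log2 differences themselves stayed between 0.44 and 0.72 for the 4 genes over these 6 fits.

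Among the 16 genes that did not pass, 2 came closest; both fall outside the naming rule and were picked after their values were seen. Pcdhb5 read 5.55, 5.56 and 5.20 in the controls and 5.83, 5.89 and 5.84 in the knockdown. The knockdown arrays were nearly equal and all above the controls, of which replicate 3 was low, and the difference of 0.41 ± 0.11 (SE) missed the threshold (limma adjusted p = 0.0655). Pcdhb16 read 6.76, 6.34 and 6.52 against 6.69, 6.93 and 7.11, so the groups overlapped, and its difference was 0.37 ± 0.14 (limma adjusted p = 0.178).

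The lowest differences of the cluster were close to 0. Pcdhb2 read 5.63, 5.69 and 5.56 in the controls and 5.48, 5.57 and 5.59 in the knockdown, a difference of -0.08 ± 0.08 (SE). Pcdhb3 read 5.72, 5.65 and 5.72 against 5.44, 5.87 and 5.65, a difference of -0.04 ± 0.11, with the spread all on the knockdown side. Pcdhb13 read 4.08, 3.96 and 4.19 against 4.04, 4.12 and 3.97, also -0.04. In each of these 3 genes the groups overlapped.

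Pcdhb7 and Pcdhb10, the other genes with a difference below 0, had -0.03 and -0.01. Pcdhb7 held between 4.53 and 4.68 over all 6 arrays and Pcdhb10 between 3.98 and 4.18. Together with Pcdhb1, Pcdhb11, Pcdhb13 and Pcdhb15 they had a mean below the median of the negative controls, so a change in these 6 genes could go unseen.

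The remaining genes had small positive differences. Pcdhb11 differed by 0.19, with groups that did not overlap (4.68 to 4.85 against 4.90 to 5.08), but did not pass (limma adjusted p = 0.282). Pcdhb19 differed by 0.18, Pcdhb6 by 0.17, Pcdhb1 by 0.15, Pcdhb9 by 0.11, Pcdhb8 by 0.10, Pcdhb15 by 0.08, Pcdhb4 by 0.05 and Pcdhb12 by 0.03 on the log2 scale. Pcdhb6 varied most between knockdown arrays, which read 6.24, 5.57 and 5.89.

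The 95% intervals of the 16 genes that did not pass reached from -0.29 to 0.68 on the log2 scale. For 14 of the 16 the interval lay wholly within a 1.5-fold change in either direction, and Pcdhb5 and Pcdhb16 were the exceptions. All 16 read under the negative-control 95th percentile on every array, so these intervals describe the compressed signal and do not bound the change in RNA. With 3 arrays a group, the half-widths over the 20 genes ran from 0.17 to 0.35.

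**Figure D2:**
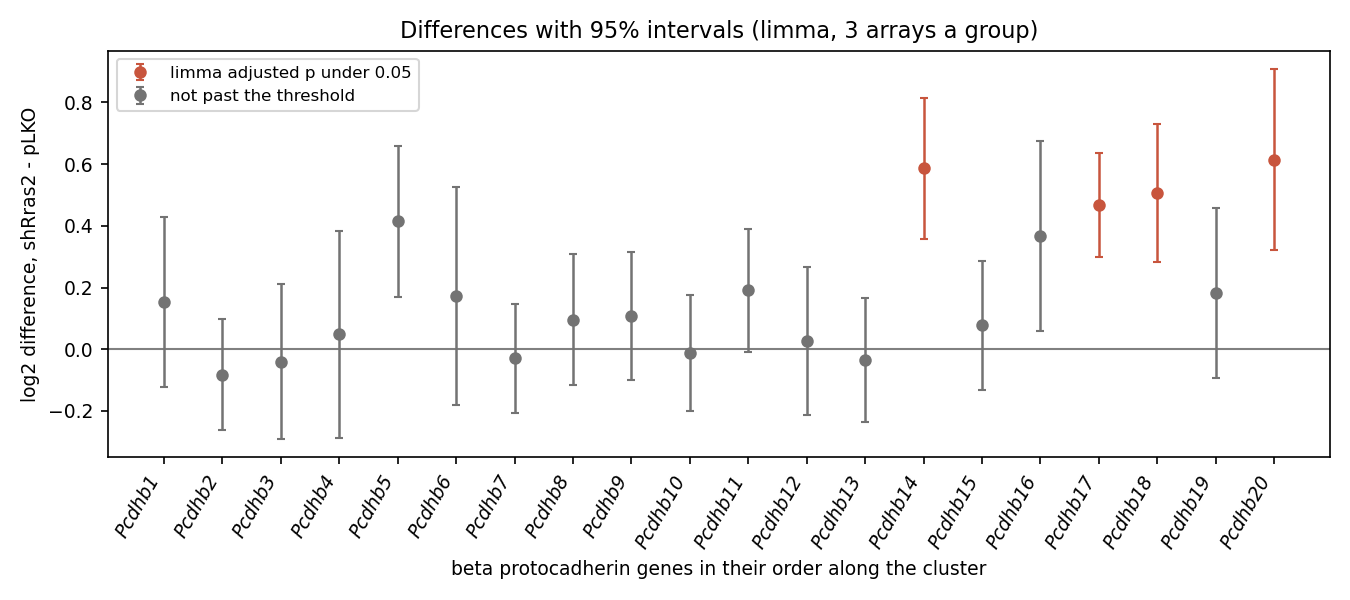
Log2 difference (shRras2 minus pLKO) of each beta protocadherin with its 95% interval from limma, in the genes' order along the cluster; red marks an adjusted p under 0.05. The 4 red points lie between Pcdhb14 and Pcdhb20, and the differences of Pcdhb1 to Pcdhb13 run from -0.08 to 0.41.

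Placed in order along the chromosome, the 4 genes that rose all lie in the last stretch of the measured genes, from Pcdhb14 to Pcdhb20. Pcdhb21 and Pcdhb22 were not analysed, so the stretch may not reach the end of the cluster. This stretch was marked off after the values were seen, so it is described without a test. All 7 of its genes had a positive difference, with a median of 0.47, and the 3 that did not pass were Pcdhb15, Pcdhb16 and Pcdhb19. The 13 genes from Pcdhb1 to Pcdhb13 had 0 calls in limma, 1 unadjusted p under 0.05 (Pcdhb5), 8 positive and 5 negative differences and a median of 0.05. In the fits without 1 array the median of the last stretch stayed between 0.45 and 0.48 and that of the first between 0.02 and 0.12.

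The stretches were also counted array by array. Of the 7 genes of the last stretch, 5 lay above all 3 controls on knockdown replicate 4, 6 on replicate 5 and 7 on replicate 6. Of the 13 genes before it, 4, 3 and 6 did. Over all genes, 28.8%, 27.8% and 28.3% lay above all 3 controls on these arrays. Knockdown replicate 5 kept the most Rras2 signal of the 3 knockdown arrays. Pcdhb15, with 4.24, 4.04 and 4.31 against 4.04 to 4.17 in the controls, lay below the median of the negative controls on every array. Mean signals ran from 4.16 to 7.87 in the last stretch and from 4.06 to 6.60 in the first, and the part of signal level in the difference between stretches was not tested.

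Genes around the protocadherin locus were read next. These were Slc25a2 and Taf7, which lie between the beta and gamma clusters, and the 10 nearest measured genes on either side. Of these 22 genes limma called 0, with 6 at an unadjusted p under 0.05, and the median difference was -0.04. Over all genes, 19.1% had an unadjusted p under 0.05, and such counts in the lists below are to be set against that share. Calls there and among the markers are to be set against the 2.99% called higher and 2.22% called lower over all genes. Taf7, which encodes a subunit of the general transcription factor TFIID, read 6.79, 6.64 and 6.77 in the controls and 6.79, 6.82 and 6.67 in the knockdown, a difference of 0.03 ± 0.08 (SE). Slc25a2, a mitochondrial ornithine carrier gene, had -0.05 ± 0.13. Diaph1, the formin gene next to the gamma cluster, had 0.02 ± 0.10. The difference farthest from 0, named after its value was seen, was that of Cd14, an innate immune co-receptor gene on the alpha side. It was -0.57 ± 0.14 (limma adjusted p = 0.0544), and the Cd14 signal exceeded the negative-control 95th percentile on only 1 array.

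The protocadherins that lie outside the clusters lie at scattered places in the genome and are regulated apart from them. Of 11 measured, 0 rose and 2 fell, and the median difference was -0.09. Pcdh20 read 6.23, 6.22 and 6.08 in the controls and 5.30, 5.61 and 5.68 in the knockdown, a fall of 0.65 on the log2 scale (SE 0.11; limma adjusted p = 0.0131). Pcdh11x, on the X chromosome, read 5.24, 4.99 and 4.97 against 4.55, 4.59 and 4.65 and fell by 0.47 (SE 0.09; limma adjusted p = 0.0251). Both stayed under the negative-control 95th percentile on all 6 arrays. Pcdh7, Pcdh18 and Pcdh19, which lay above it on all 6, had differences of -0.00, 0.00 and -0.01. Pcdh1 and Pcdh12, which also count among the neighbours, had -0.18 and 0.28 and did not pass.

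**Figure D3:**
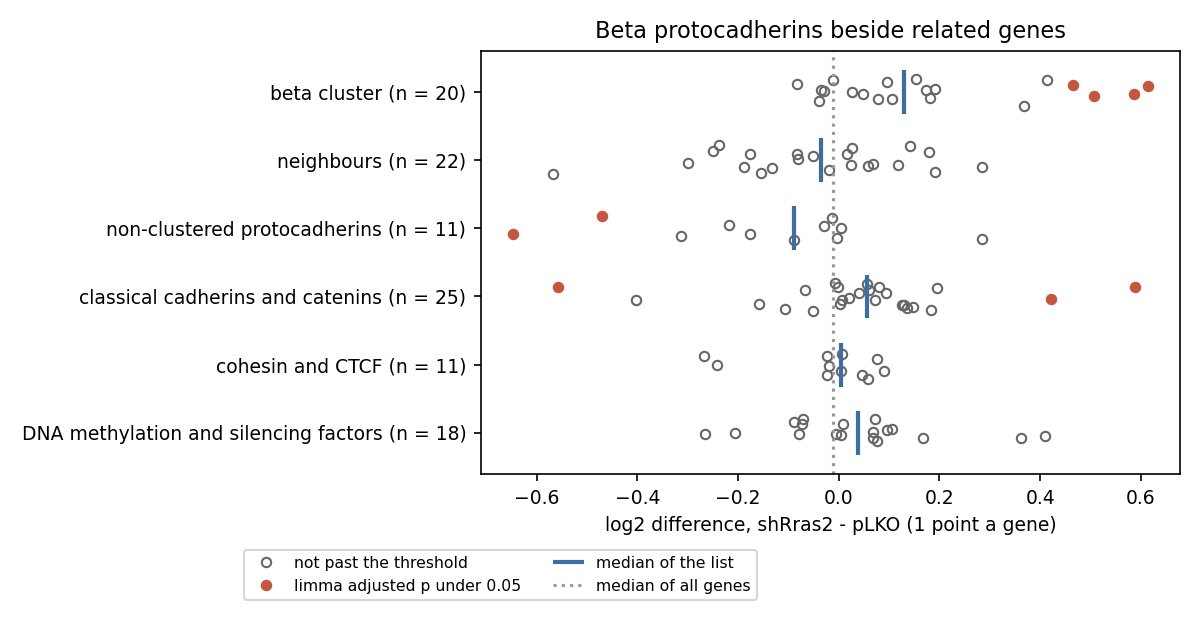
Log2 difference (shRras2 minus pLKO) of each gene in the beta cluster and in 5 related lists, 1 point a gene, filled where limma's adjusted p is under 0.05; bars are list medians and the dotted line the median of all genes (-0.01). The beta cluster has 4 filled points, all above 0, and the non-clustered protocadherins have 2, both below 0.

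Of the factors known to act on protocadherin promoters, none of those measured passed. Of 11 CTCF and cohesin genes limma called 0, with 1 unadjusted p under 0.05 (median 0.01). Ctcf read 10.34, 10.43 and 10.43 in the controls and 10.31, 10.47 and 10.35 in the knockdown, and the cohesin subunit genes Rad21 and Smc3 differed by 0.05 ± 0.07 and 0.08 ± 0.09 (SE). Of 18 DNA methylation and silencing factors limma called 0, with 4 at an unadjusted p under 0.05, against 19.1% of all genes (median 0.04). Dnmt3b, the methyltransferase known to mark these promoters, read under the negative-control 95th percentile and differed by 0.11 ± 0.18. Smchd1, a chromatin protein that represses the clusters, had a mean of 7.85 in each group, also under that percentile, and differed by 0.01 ± 0.11. Setdb1, a histone H3 lysine methyltransferase, differed by -0.21 ± 0.09 (limma adjusted p = 0.242).

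The demethylation enzyme genes Tet2 and Tet1 had the largest positive differences of that list and were picked out after their values were seen. Tet2 had means of 7.79 ± 0.10 and 8.15 ± 0.13 (SD, n = 3 each), and Tet1 read 5.66, 5.95 and 6.05 against 6.18, 6.37 and 6.33. In both genes the groups did not overlap, and neither passed the threshold (0.36 ± 0.09 and 0.41 ± 0.11, SE, with limma adjusted p = 0.0656 and 0.0784). Tet1 read under the negative-control 95th percentile on every array, and Tet2 on every control array. Uhrf1 had the largest negative difference of the list, -0.27 ± 0.08 (SE; limma adjusted p = 0.0938), and was likewise picked after its values were seen. It lay above that percentile on all 6 arrays. Of the 18 genes of the list, 2 lay fully higher in the knockdown (Tet1 and Tet2) and 2 fully lower (Uhrf1 and Setdb1). Over all genes these shares were 11.6% and 13.9%.

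Partners of protocadherin proteins in general were covered by 2 lists. The lists were not drawn up for the beta proteins, and whether these partners act with them was not tested. Of 17 measured signalling partners, among them the receptor kinase gene Ret and the WAVE complex that drives actin branching, limma called 0, with 1 unadjusted p under 0.05 (median 0.07). Of these 17, 4 lay fully higher in the knockdown and 0 fully lower, against 11.6% and 13.9% of all genes. Of 7 genes for the proteases that cut protocadherins at the membrane, 1 fell and 0 rose. This was Aph1a, a gamma-secretase subunit gene, which read 10.98, 10.76 and 10.97 in the controls and 10.50, 10.37 and 10.26 in the knockdown (difference -0.52 ± 0.10, SE; limma adjusted p = 0.0186). Adam10, the sheddase gene, differed by 0.11 ± 0.08.

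Among 25 cadherins and catenins 2 rose and 1 fell (median 0.06), where limma called 2.99% of all genes higher and 2.22% lower. Jup, which encodes plakoglobin, rose by 0.59 and Cdh11, the mesenchymal cadherin gene, by 0.42, both on signals above the negative-control 95th percentile. Cdh17 fell by 0.56 below that level (limma adjusted p = 0.0113, 0.0362 and 0.0213 for Jup, Cdh11 and Cdh17).

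Marker genes were read for the cell types in which protocadherins are known and for others the cells could hold. Of 9 mesenchymal markers 7 had a mean above the 95th percentile of the negative controls, Vim, Fn1 and Sparc among them, as the fibrosarcoma label gives, and 2 rose (Col3a1 by 0.69 and Pdgfrb by 0.37). Of 10 neuronal markers 2 rose, Stmn2 by 2.25 and Tubb3 by 1.08 (limma adjusted p = 3.64e-05 and 0.00336), and 0 fell. The other neuronal markers did not pass, and Snap25, Syp, Syt1, Rbfox3, Dcx, Elavl3 and Elavl4 lay below that percentile on every array. Map2, above that percentile on all 6 arrays, differed by 0.33 ± 0.11 (SE; limma adjusted p = 0.124), and its groups did not overlap. The list had 4 positive and 6 negative differences and a median of -0.04. All 6 negative ones were among the markers below that percentile. The mean signal of the list, whose difference rests mostly on Stmn2 and Tubb3, was 6.57 to 6.67 on the controls and 6.84 to 6.98 on the knockdown arrays.

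Skeletal muscle markers had a median log2 difference of 2.22. Of 10, 7 rose and 0 fell. The 6 largest rises were those of Myl1 (3.86), Myh3 (3.61), Mymk (3.00), Myh8 (2.99), Acta1 (2.78) and Des (1.66). The mean signal of the list was 6.41 to 6.63 on the controls and 8.13 to 8.81 on the knockdown arrays, lowest on replicate 5. All 4 glial, 5 endothelial, 4 immune and 5 epithelial markers measured stayed under the negative-control 95th percentile on all 6 arrays, and limma called 0 of them, with 3 endothelial genes at an unadjusted p under 0.05, against 19.1% of all genes. The part of the muscle and neuronal genes in the rises of Pcdhb14, Pcdhb17, Pcdhb18 and Pcdhb20 was not tested.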

How the data were processed

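The authors deposited RMA values on a log2 scale, made under R version 3.6.3 according to the submitters' processing notes. RMA subtracts background, equalizes the arrays' distributions and combines the probes of a set. Which RMA package and which filters were used is not given in the sources used here. Of 29129 probe sets, 19572 have 1 symbol in the platform annotation and 2634 transcript probe sets have none. The brightest probe set per symbol left 19505 genes. The RefSeq gene table of GRCm38.p6 gave names, gene order and neighbours only; no coordinates or sequences are printed.

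Groups were compared by lmFit and eBayes of limma 3.58.1 (R 4.3.3) without covariates, two-sided, on 4 residual and 4.85 prior degrees of freedom. P-values were adjusted by Benjamini-Hochberg over the 19505 genes, and 0.05 was the threshold. The number of arrays limits the precision (median SE 0.10). On simulated data for this comparison (19505 genes) it recovered 30 of 67 genes changed by 0.5, 63 of 67 by 1 and 66 of 66 by 2 on the log2 scale, and called 8 of 19305 unchanged genes. The simulation changed fewer genes than limma called in the data (1017), which affects the adjusted p. Recovery among weak signals like those of the beta genes was not counted apart.

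The members and lists were chosen with earlier results of these data known. Values on every array are given for members past the threshold, the 3 largest rises and the 3 lowest differences; of each list, up to 6 members past the threshold are named. Other genes of the lists and neighbours are named for their role, except Tet1, Tet2, Uhrf1, Map2 and Cd14, picked after their values were seen. Alternatives were 3 normalizations, leaving out the dimmest 30% of genes, averaged probe sets, a trended robust eBayes, array weights and leaving out each array.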

Additional observations from a re-analysis of the deposited data

How the results depend on the processing

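The count of 4 beta genes, all higher, and the same 4 genes were found after repeated quantile normalization, after arrays were centred on their medians, with cyclic loess, without the dimmest 30% of genes (9 beta genes left), with averaged probe sets (no beta gene has more than 1), with a trended robust eBayes and with array weights. Without 1 array it ranged from 1 to 4. Over all 13 alternatives the adjusted p reached at most 0.0493 for Pcdhb17, 0.0548 for Pcdhb14, 0.0905 for Pcdhb18 and 0.103 for Pcdhb20, and for Pcdhb5, which is not among the genes left without the dimmest 30%, it lay between 0.0552 and 0.162 over the other 12. The median difference of 0.13 was 0.090 with centred arrays, 0.37 without the dimmest genes, where fewer members remain, and 0.063 to 0.164 without 1 array. The count over all genes was 1908 with the trended robust eBayes (the cause was not tested) and 392 to 1136 without 1 array. Centring gave 506 higher and 567 lower (47.2% higher, against 57.4% as deposited), and moved the median of all genes to -0.05. Weak signals limit what can be seen for the 6 beta genes below the median of the negative controls. No paired analysis was possible because the groups share no replicate numbers. The alpha and gamma clusters had no genes to refit.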
